A study of Mus musculus with 6 samples.

Results

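The macrophage and leukocyte marker genes are 30 genes whose transcripts are used to recognise macrophages, monocytes and lymphocytes in heart tissue. They were taken by name from the separate table of each library, which held 45802 genes by name, and all 30 were found. RNA immunoprecipitation followed by sequencing (RIP-seq), in which the RNAs held by an antibody's target protein are pulled down and sequenced, had been performed on left ventricles of male mice aged 10 weeks. The 3 groups (Sham, AngII 4 h and AngII 24 h) had 2 mice each, and AngII was delivered at 1 mg/kg/min by a subcutaneous osmotic minipump for 4 or 24 h. Sham mice were infused with saline according to the protocol and are called untreated in the labels. Each group gave an anti-EZH2 library and a normal IgG library, each made from 2 RIP products mixed before sequencing. The strain label was C57BL/6 for the 3 IgG libraries and the Sham anti-EZH2 library, C57BL/7 for the AngII 4 h anti-EZH2 library and C57BL/8 for the AngII 24 h anti-EZH2 library. No group carried a genetic modification according to the labels.

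Macrophages are the main immune cells of the healthy myocardium, where resident cells clear debris and dying cells, and monocytes recruited from blood through the chemokine receptor CCR2 can add to them after injury or pressure overload. They are recognised by lysosomal and scavenger proteins, by the complement component C1q, by the receptor of their growth factor CSF1 and, in part, by MHC class II proteins, which present antigen to CD4+ T cells. In a lysate of whole ventricle, fewer cells of a type and less RNA per cell cannot be told apart.

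With 1 library for each combination of group and antibody there was no replicate of a treatment, and differences between treatment groups are given as values without a test. The IgG and anti-EZH2 libraries of a group came from the same mice and are not replicates of the treatment. The values were FPKM, fragments scaled to the length of the transcript and to the mapped fragments of the library, and differences were calculated on the log2(FPKM + 0.5) scale, which understates differences of low genes. A gene was called different at 2-fold on this scale. Of the 30 markers, 17 had a mean FPKM of at least 1 over the 6 libraries and entered the counts, as did 8629 genes in all. Whole-read steps in the low values placed the depth of the libraries between 3.79 and 7.96 (in units of 1e+06 fragments), and 1 read could be assigned a value for 13 of the 30 markers. The AngII 24 h anti-EZH2 library stood apart, with 31.3% of its FPKM from mitochondrially encoded genes against 6.73% to 13.9% in the other libraries. It was the lowest of the 6 libraries for 33.4% of all tested genes.

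All 6 libraries were immunoprecipitates, and without a library of total RNA the FPKM do not measure abundance in the ventricle. The markers were low in these libraries, and the macrophage group made up the largest part of the marker sum in each. The summed FPKM of the markers lay between 54.3 and 123.8 per library, while 10 cardiomyocyte genes, among them Myl2, summed to between 5537 and 9738. Lyz2, Cd74 and the 3 C1q chains led the list, whereas the lymphocyte and monocyte entries were close to 0. Of the 180 values of the 30 markers, 156 were above 0, and 22 markers were above 0 in every library.

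**Figure D1:**
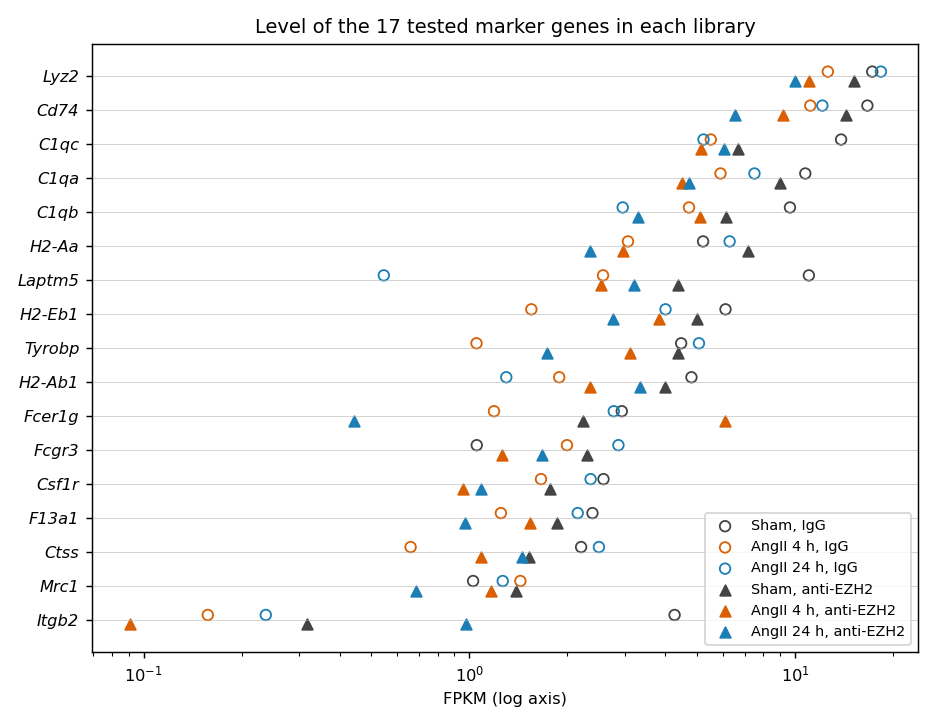
FPKM (log axis) of the 17 markers with a mean of at least 1 FPKM, ordered by mean, in each of the 6 libraries; open circles are IgG and filled triangles anti-EZH2 libraries, and the colour gives the treatment group. For 14 of the 17 markers both Sham libraries (grey) lie to the right of both AngII 4 h libraries (orange).

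The most general pattern was a lower marker level 4 h after the start of AngII than in Sham, seen with either antibody. For 14 of the 17 tested markers both AngII 4 h libraries lay below both Sham libraries, which held for 9.4% of all tested genes. The exceptions were Mrc1, Fcer1g and Fcgr3, and after median centring of the libraries the same 14 markers were below (19.1% of genes). The median difference of the 17 markers was -0.96 in IgG and -0.44 in anti-EZH2 libraries, while that of all tested genes was 0.16 and 0.29. In IgG libraries 8 of the 17 markers were at least 2-fold lower and 0 at least 2-fold higher, against 9.29% and 14.5% of tested genes. In anti-EZH2 libraries 1 was 2-fold lower (H2-Aa) and 1 2-fold higher (Fcer1g), against 8.52% and 16.0%. After median centring 10 markers were 2-fold lower in IgG and 5 in anti-EZH2 libraries, with 0 higher in either, while of all tested genes 1002 and 1155 were lower and 929 and 808 higher. No tested marker was 2-fold lower with both antibodies, where 1.92% of genes were. Itgb2 passed the level filter through the Sham IgG library alone, so that its lower value elsewhere follows from the filter. It was among the markers 2-fold lower in IgG libraries, before and after centring. Without Itgb2, 13 of 16 markers had both 4 h libraries below both Sham libraries.

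After 24 h the markers were below Sham less uniformly. For 7 of the 17 markers (C1qa, C1qb, C1qc, Laptm5, Cd74, H2-Ab1 and H2-Eb1) both AngII 24 h libraries lay below both Sham libraries, which held for 12.4% of tested genes. After median centring there were 12 such markers, against 18.4% of genes. The median difference from Sham was -0.12 in IgG libraries, where that of all tested genes was 0.18, and -0.67 in anti-EZH2 libraries, where that of all genes was -0.07. In IgG libraries 5 markers were 2-fold lower and 1 (Fcgr3) 2-fold higher, against 8.41% and 17.0% of tested genes. Itgb2 was among the 5 lower markers, which follows from the level filter. In anti-EZH2 libraries 4 were 2-fold lower and 0 higher, against 18.1% and 9.92%, so that this count was close to the share of all genes. With centring the counts were 5 lower and 0 higher in IgG and 4 lower and 0 higher in anti-EZH2 libraries, against 991 and 1519 lower and 1026 and 1024 higher among all tested genes. No tested marker was 2-fold lower with both antibodies, where 2.36% of genes were.

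**Figure D2:**
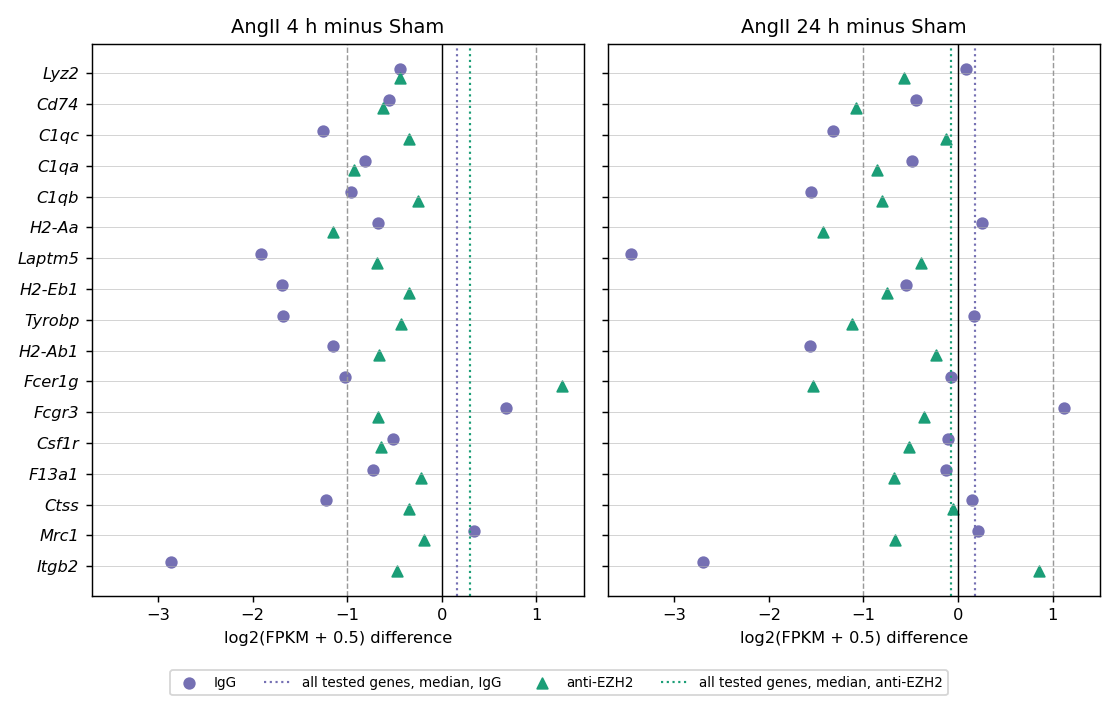
Difference of log2(FPKM + 0.5) between AngII and Sham libraries for the 17 tested markers, at 4 h (left) and 24 h (right), in IgG (circles) and anti-EZH2 (triangles) libraries; dotted lines are the medians of all 8629 tested genes in the same comparison and dashed lines mark 2-fold. At 4 h, 15 of the 17 markers in IgG and 16 of 17 in anti-EZH2 libraries are below 0, while both gene medians are above 0.

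Both time points were compared with the same Sham libraries, so a high Sham value enters both differences. The Sham IgG library held the highest value of the 6 for 10 of the 17 markers, while it was the highest library for 15.9% of all tested genes. Itgb2 was among these 10, which follows from the level filter. Directly between the time points, the AngII 24 h IgG library was 2-fold above the AngII 4 h IgG library for 3 markers (Ctss, Tyrobp and H2-Eb1) and 2-fold below it for 1 (Laptm5), against 11.5% and 9.11% of genes. With anti-EZH2, 1 marker was 2-fold higher at 24 h than at 4 h (Itgb2) and 1 lower (Fcer1g), against 6.08% and 22.7%.

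The sums of the marker groups followed the same order at 4 h under each scaling tried, and at 24 h they depended on which deposited table was read. The 30 markers summed to 123.8 FPKM in Sham IgG, 65.1 in AngII 4 h IgG and 81.8 in AngII 24 h IgG libraries, and to 93.3, 66.9 and 54.3 in the corresponding anti-EZH2 libraries. The 4 h sum was 52.6% of that of Sham in IgG and 71.7% in anti-EZH2 libraries. After each library had been centred on the median of all tested genes these shares were 44.8% and 54.0%, and in the table of the whole series, which the authors also deposited, they were 44.4% and 50.7%. At 24 h the separate tables gave 66.04% and 58.2% of the Sham sum, but the table of the whole series gave 99.8% and 103.0%. In that table the median difference of all tested genes between 24 h and Sham was 0.52 in IgG and 0.55 in anti-EZH2 libraries, and after centring it gave 63.4% and 62.7%. The 24 h level was therefore at or below Sham depending on the scale, and below Sham relative to the median gene in both tables.

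**Figure D3:**
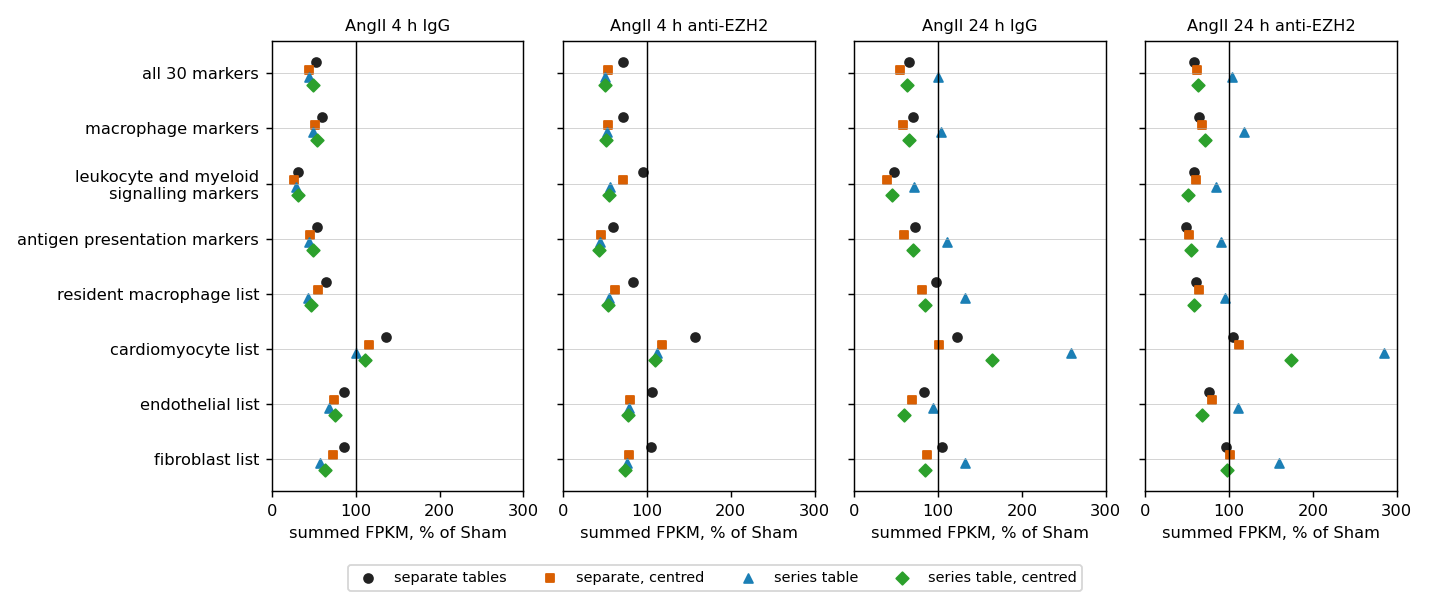
Summed FPKM of the markers, of their groups and of lists for other cell types in each AngII library, as a percent of the sum in the Sham library of the same antibody (vertical line, 100%), calculated from either kind of deposited table, with and without median centring. The 30 markers lie between 44.4% and 71.7% in the 4 h libraries under all 4 scalings, and at 24 h the uncentred table of the whole series (blue triangles) is near 100%.

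Other cell types of the ventricle moved in part in the same direction. The cardiomyocyte list summed to 136.4% of Sham at 4 h in IgG and 157.0% in anti-EZH2 libraries, the endothelial list to 86.5% and 106.7%, and the fibroblast list to 86.0% and 105.1%. After centring the endothelial list stood at 73.7% and 80.4% and the fibroblast list at 73.2% and 79.2%, against 44.8% and 54.0% for the markers. The erythroid list of 5 genes summed to 67.9% of Sham in IgG and 81.1% in anti-EZH2 libraries at 4 h, and after centring to 57.8% and 61.1%. Of its 5 genes, 5 were below Sham in IgG and 4 in anti-EZH2 libraries. Whether blood held in the ventricle or the share of cardiomyocyte RNA in a library contributed to the lower marker values was not tested. A list of 12 other genes of resident cardiac macrophages, among them Gas6 and Pf4, summed to 64.9% of Sham in IgG and 83.1% in anti-EZH2 libraries at 4 h, and to 97.4% and 60.3% at 24 h. In the table of the whole series the 24 h sums were 132.7% and 95.6% of Sham, and 84.3% and 58.2% after it had been centred. Of the 6 tested genes of that list, 3 were 2-fold lower than Sham at 4 h in IgG libraries and 0 in anti-EZH2 libraries, against 9.29% and 8.52% of all tested genes. After centring 3 and 2 of the 6 were lower. A list of 28 other myeloid effector genes summed to 45.7% of Sham in IgG and 76.05% in anti-EZH2 libraries at 4 h. A list of 8 myeloid transcription factors did not share the lower level with anti-EZH2. It summed to 94.65% in IgG and 171.8% in anti-EZH2 libraries at 4 h, and to 80.6% and 129.4% after centring, and 1 of its genes entered the counts.

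C1qa, C1qb and C1qc encode the 3 chains of C1q, which starts the classical complement pathway and binds to debris and dying cells, and in the heart they are transcribed mainly by macrophages. The genes lie side by side on the minus strand of chromosome 4 (GRCm38, the same assembly as mm10), with C1qb at chr4:136880129-136886187, C1qc at chr4:136889804-136893065 and C1qa at chr4:136895917-136898803. The 250 bases before the RefSeq start sites of C1qb (chr4:136886201-136886450, minus strand) and C1qc (chr4:136892915-136893164, minus strand) are shown as the promoters of neighbouring genes of this group for which RefSeq gave an entry, and C1qa had no entry. Capitals mark GAGGAA, the core recognised by the myeloid factor PU.1, or its reverse complement.
C1qb: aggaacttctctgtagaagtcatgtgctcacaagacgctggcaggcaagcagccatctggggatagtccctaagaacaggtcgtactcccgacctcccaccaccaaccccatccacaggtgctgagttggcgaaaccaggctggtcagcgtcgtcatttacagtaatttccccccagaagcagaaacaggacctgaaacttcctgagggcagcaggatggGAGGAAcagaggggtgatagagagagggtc
C1qc: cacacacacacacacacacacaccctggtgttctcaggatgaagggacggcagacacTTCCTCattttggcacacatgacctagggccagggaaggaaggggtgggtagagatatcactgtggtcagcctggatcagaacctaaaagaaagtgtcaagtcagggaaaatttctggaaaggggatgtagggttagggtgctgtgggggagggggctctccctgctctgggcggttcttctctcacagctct
The motif began 30 bases before the RefSeq start of C1qb on the same strand, and 193 bases before that of C1qc on the opposite strand. The C1qc position given above, from GENCODE, reaches to 136893065, so that part of the C1qc window lies inside the gene by that annotation. Searched on both strands, GAGGAA was present in 14 of the 24 promoter windows (58.3%) of the 21 markers with a RefSeq promoter entry (GRCm38.p6), and in 23.3% of all 32851 windows of that length. A match of these letters is a description and does not show binding.

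C1qa was measured at 10.8, 5.90 and 7.51 FPKM in the Sham, AngII 4 h and AngII 24 h IgG libraries and at 9.0, 4.49 and 4.74 FPKM in the anti-EZH2 libraries. Both Sham libraries were above the 4 AngII libraries, and the 4 h and 24 h libraries overlapped. The values corresponded to between 19 and 43 reads per library. Scaled to depth, the 4 h to Sham ratio of reads was 0.549 (exact 95% interval 0.321 to 0.926) in IgG and 0.499 (0.302 to 0.814) in anti-EZH2 libraries. These intervals cover counting error only and compare libraries, not conditions. In the table of the whole series C1qa was -0.94 and -1.21 from Sham at 4 h in the IgG and anti-EZH2 libraries, but 0.87 and 0.61 at 24 h.

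C1qc showed 13.8, 5.51 and 5.24 FPKM in the IgG libraries and 6.66, 5.13 and 6.06 FPKM in the anti-EZH2 libraries, in the order Sham, 4 h and 24 h. The Sham IgG library stood alone, and the other 5 libraries were close to each other. From 60 reads in Sham IgG and 29 in the 4 h IgG library the ratio was 0.398 (0.247 to 0.631), and at 24 h, with 20 reads, it was 0.379 (0.217 to 0.639). In anti-EZH2 libraries the differences were small, at -0.35 and -0.13. The 24 h difference of C1qc in IgG libraries was -1.32 as given above and turned to 0.17 in the table of the whole series.

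C1qb followed with 9.65, 4.73 and 2.96 FPKM in IgG and 6.14, 5.09 and 3.30 FPKM in anti-EZH2 libraries, and both Sham libraries were the highest. Its read ratio to Sham in IgG libraries was 0.490 (0.275 to 0.853) at 4 h and 0.308 (0.136 to 0.631) at 24 h. The 3 chains thus agreed at 4 h in IgG libraries, each with an interval below 1, while in anti-EZH2 libraries that held for C1qa alone. The 24 h difference of C1qb in IgG libraries was -1.55 in the separate tables and -0.44 in the table of the whole series.

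**Figure D4:**
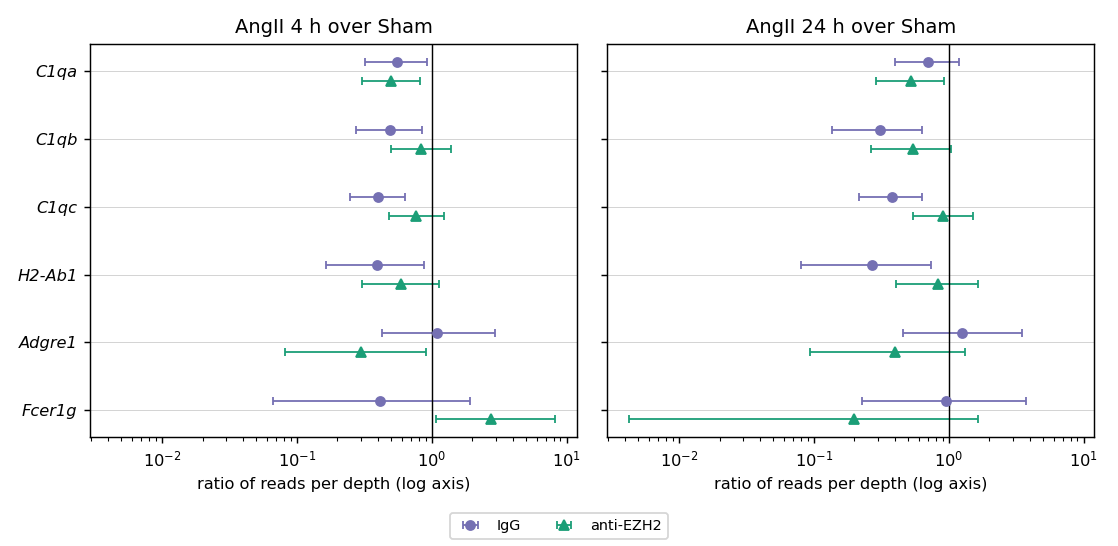
Ratio of inferred reads scaled to depth (log axis) between AngII and Sham libraries at 4 h (left) and 24 h (right), in IgG (circles) and anti-EZH2 (triangles) libraries, with exact 95% intervals, for 6 of the 13 markers whose values gave whole reads. Among those not drawn, the 4 h ratios in IgG and anti-EZH2 libraries were 1.18 and 1.14 for Cd163 and 0.258 and 0.4765 for Cx3cr1. The 3 C1q genes and H2-Ab1 lie below 1 at 4 h with either antibody, and the intervals of all 4 exclude 1 in IgG libraries.

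Lyz2, the lysozyme of macrophages and other myeloid cells, was the most abundant marker. It was measured at 17.3, 12.6 and 18.3 FPKM in the Sham, 4 h and 24 h IgG libraries and at 15.2, 11.1 and 10.0 FPKM in the anti-EZH2 libraries. At 4 h it was -0.44 from Sham with either antibody, short of 2-fold, and at 24 h the antibodies differed in direction (0.09 and -0.57). Lyz2 has a paralog, Lyz1, with which reads can be shared, and Lyz1 was listed at no more than 0.979 FPKM.

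Csf1r, F13a1 and Ctss, a receptor and 2 enzymes of tissue macrophages, had mean levels of 1.73, 1.69 and 1.57 FPKM over the 6 libraries. Csf1r, the receptor of the macrophage growth factor CSF1, was at 2.58, 1.66 and 2.36 FPKM in IgG and 1.77, 0.956 and 1.08 FPKM in anti-EZH2 libraries. Csf1r was below Sham in all 4 differences, and none reached 2-fold. The largest was -0.64, at 4 h with anti-EZH2. F13a1, the A subunit of coagulation factor XIII and a marker of resident macrophages, was at 2.39, 1.25 and 2.15 FPKM in IgG and 1.86, 1.53 and 0.973 FPKM in anti-EZH2 libraries. Ctss, cathepsin S, a lysosomal protease that trims the MHC class II chaperone, was at 2.20, 0.660 and 2.50 FPKM in IgG libraries. This was 2-fold lower at 4 h (-1.22) and close to Sham at 24 h, with a 24 h to 4 h read ratio of 3.80 (1.13 to 16.4) from 11 and 4 reads. In anti-EZH2 libraries Ctss varied little, at 1.52, 1.09 and 1.45 FPKM.

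The scavenger receptors did not share this pattern. Mrc1, the mannose receptor CD206, was at 1.03, 1.43 and 1.27 FPKM in IgG and 1.39, 1.16 and 0.687 FPKM in anti-EZH2 libraries, and the groups overlapped. Cd163, the haemoglobin scavenger receptor, was at 0.769, 0.904 and 1.25 FPKM in IgG and 0.625, 0.714 and 0.696 FPKM in anti-EZH2 libraries, so that both Sham libraries were below the others of their antibody. No read ratio of Cd163 between AngII and Sham had an interval that excluded 1.

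The other 5 macrophage markers, like Cd163, were too low for the counts. Adgre1, which encodes the surface protein F4/80, was at 0.711, 0.781 and 0.897 FPKM in IgG and 0.720, 0.214 and 0.286 FPKM in anti-EZH2 libraries. Its 4 h to Sham read ratio with anti-EZH2 was 0.298 (0.0822 to 0.908), from 5 and 12 reads. Cx3cr1, the fractalkine receptor of resident macrophages and monocytes, was at 1.25 FPKM in Sham IgG and 0.324 FPKM in the 4 h IgG library, and was listed at 0 in both 24 h libraries. From 16 reads in Sham IgG the exact upper bound of the 24 h ratio was 0.295. With anti-EZH2 and 6 reads in Sham, the Cx3cr1 interval was 0.0989 to 2.01 at 4 h and the 24 h upper bound was 1.01, so that neither excluded 1. Cd68, a lysosomal glycoprotein, ranged from 0 to 2.25 FPKM, Lgals3, galectin-3, from 0 to 1.39 FPKM, and Cd14, a coreceptor for bacterial lipopolysaccharide, from 0.337 to 0.916 FPKM. The Cd68 and Cd14 values were not lower at 4 h in IgG libraries, where they were higher by 0.74 and 0.51.

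The MHC class II genes and their invariant chain were the other group that was lower at 4 h throughout. Cd74 encodes the invariant chain, which occupies the binding groove of class II molecules until they reach the endosome, and H2-Aa, H2-Ab1 and H2-Eb1 encode class II chains. All 4 were below Sham at 4 h with either antibody, their sum being 53.8% of Sham in IgG and 60.0% in anti-EZH2 libraries. At 24 h the separate tables put the sum at 72.3% and 49.1%, and the other table put it at 110.8% and 90.0%.

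The 250 bases before the starts of H2-Aa (chr17:34287824-34288073, minus strand) and H2-Eb1 (chr17:34305617-34305866, plus strand) are shown because class II genes share promoter elements. Capitals mark ATTGG, the inverted CCAAT sequence of the class II Y box, or its reverse complement.
H2-Aa: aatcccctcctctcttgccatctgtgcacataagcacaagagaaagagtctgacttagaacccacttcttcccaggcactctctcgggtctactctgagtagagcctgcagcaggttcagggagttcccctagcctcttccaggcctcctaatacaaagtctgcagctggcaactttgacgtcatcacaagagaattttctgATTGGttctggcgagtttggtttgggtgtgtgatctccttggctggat
H2-Eb1: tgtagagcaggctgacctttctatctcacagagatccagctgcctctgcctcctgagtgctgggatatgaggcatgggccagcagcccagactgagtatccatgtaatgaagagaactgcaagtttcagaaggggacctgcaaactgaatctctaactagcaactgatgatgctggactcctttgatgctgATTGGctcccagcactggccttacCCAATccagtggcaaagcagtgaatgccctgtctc
The match began 48 bases before the start in H2-Aa on the same strand, and in H2-Eb1 matches began 59 bases before it on the same strand and 35 bases before it on the opposite strand. ATTGG occurred in 10 of 24 marker windows (41.7%) and in 33.8% of all windows. The longer CTGATTGG, searched for after these sequences had been seen and containing ATTGG, occurred in H2-Aa and H2-Eb1 alone among the marker windows (8.33%), and in 3.83% of all windows.

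Cd74 was measured at 16.7, 11.1 and 12.1 FPKM in the Sham, 4 h and 24 h IgG libraries and at 14.3, 9.17 and 6.52 FPKM in the anti-EZH2 libraries. Both Sham libraries were the highest of the 6, and the 24 h anti-EZH2 difference of -1.08 was the only one past 2-fold. The deposited intervals of that pair of FPKM values did not overlap, but in the table of the whole series the difference was -0.17.

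H2-Aa was at 5.22, 3.07 and 6.30 FPKM in IgG and 7.17, 2.96 and 2.35 FPKM in anti-EZH2 libraries. It was 2-fold lower at both times with anti-EZH2 (-1.15 and -1.43), while with IgG the 24 h library was the highest of the 3. H2-Ab1 was at 4.81, 1.89 and 1.30 FPKM in IgG libraries, with read ratios to Sham of 0.393 (0.165 to 0.871) and 0.271 (0.0798 to 0.739), and at 4.00, 2.35 and 3.33 FPKM in anti-EZH2 libraries. H2-Eb1 was at 6.12, 1.55 and 4.00 FPKM in IgG and 5.00, 3.83 and 2.77 FPKM in anti-EZH2 libraries, and its 4 h difference of -1.69 with IgG was the largest of the 4 genes. Each of the 3 class II chains was thus 2-fold lower at 4 h with 1 antibody, H2-Ab1 and H2-Eb1 with IgG and H2-Aa with anti-EZH2. In the table of the whole series H2-Ab1 was short of 2-fold with IgG at either time (-0.35 and -0.41), as was H2-Aa at 24 h with anti-EZH2 (-0.70).

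The leukocyte and myeloid signalling markers varied between libraries. Their sum was 25.3, 7.97 and 11.98 FPKM in the Sham, 4 h and 24 h IgG libraries and 15.7, 14.9 and 9.05 FPKM in the anti-EZH2 libraries. The 4 h sum was thus 31.5% of Sham with IgG and 95.2% with anti-EZH2.

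Fcer1g encodes the common gamma chain of Fc receptors and Tyrobp the adaptor DAP12, and both carry signalling motifs for surface receptors of myeloid cells. Fcer1g was at 2.94, 1.19 and 2.78 FPKM in IgG and 2.23, 6.08 and 0.443 FPKM in anti-EZH2 libraries. The 4 h anti-EZH2 library was the highest of all 6 and the 24 h anti-EZH2 library the lowest. Its reads numbered 23 and 1 in these libraries, and 3 to 6 in the others, which gave a 4 h to Sham ratio of 2.74 (1.08 to 8.23) with anti-EZH2. Tyrobp was at 4.47, 1.05 and 5.07 FPKM in IgG and 4.36, 3.12 and 1.73 FPKM in anti-EZH2 libraries. It was 2-fold lower at 4 h with IgG (-1.68) and at 24 h with anti-EZH2 (-1.12), each time from 9 reads or fewer. Fcgr3, the low-affinity IgG receptor CD16, was at 1.05, 1.99 and 2.87 FPKM in IgG libraries and at 2.30, 1.26 and 1.68 FPKM in anti-EZH2 libraries, so that Sham was the lowest group with IgG and the highest with anti-EZH2.

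Laptm5, a lysosomal membrane protein of leukocytes, and Itgb2, the beta 2 integrin chain CD18, had their highest values in Sham IgG. Laptm5 was at 11.03, 2.57 and 0.546 FPKM in IgG and 4.38, 2.54 and 3.21 FPKM in anti-EZH2 libraries. The 24 h IgG value was the lowest by far and the other AngII values were alike. Itgb2 was at 4.27 FPKM in Sham IgG and between 0.0905 and 0.978 FPKM in the other 5 libraries. Coro1a, a leukocyte actin regulator outside the list, was at 5.18 FPKM in Sham IgG and 0.305 to 0.784 FPKM elsewhere. Itgb2 and Coro1a both passed the level filter through the Sham IgG library alone, so that this form follows from the filter. In the table of the whole series Itgb2 was at 0.694 FPKM in Sham IgG and at 1.09 FPKM in the 24 h anti-EZH2 library, which was then the highest.

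The remaining leukocyte markers had means below 1 FPKM and did not enter the counts, and Itgam, Cd53 and Cd52 were near the detection limit. Ptprc, the pan-leukocyte phosphatase CD45, was at 0.314, 0.880 and 0.0594 FPKM in IgG and 1.73, 0.773 and 0.881 FPKM in anti-EZH2 libraries, with no order shared by the antibodies. At 4 h Ptprc was above Sham with IgG and below it with anti-EZH2. Itgam, the integrin alpha chain CD11b, ranged from 0.122 to 0.380 FPKM, and its annotation shares exons on the same strand with Gm49368. Cd53, a leukocyte tetraspanin, was at 1.05 FPKM from 7 reads in Sham IgG and at most 0.170 FPKM elsewhere, and Cd52, a lymphocyte and monocyte surface peptide, was above 0 only in the 4 h anti-EZH2 library, at 0.804 FPKM.

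Markers of recruited monocytes and neutrophils were low. Ccr2, the receptor through which inflammatory monocytes leave the bone marrow and enter tissue, was listed at 0 in both Sham libraries and the 4 h IgG library, and reached 0.0937 FPKM in the 24 h IgG, 0.179 FPKM in the 4 h anti-EZH2 and 0.0747 FPKM in the 24 h anti-EZH2 library, from 1, 4 and 1 reads. A list of 8 further monocyte genes summed to between 3.46 and 6.36 FPKM, led by Ly6c2, a surface antigen of inflammatory monocytes whose close relative Ly6c1 can share its reads. Ly6c2 was at 2.16, 3.34 and 4.71 FPKM in IgG and 1.41, 5.63 and 0.754 FPKM in anti-EZH2 libraries. It was above Sham in 3 of the 4 AngII libraries, and 2-fold higher at 4 h with anti-EZH2. Vcan, the other tested gene of this list, was above Sham at both times with IgG and below it at both with anti-EZH2. At 4 h with anti-EZH2 Vcan thus went the other way, and after centring it was 2-fold lower there. Ly6c2 was listed at no more than 0.0815 FPKM in any library of the table of the whole series, so that its level depended on the table read. The sum of the monocyte list at 4 h with anti-EZH2 was 183.9% of Sham in the separate tables and 21.2% in that table. The 10 neutrophil genes summed to 0.0406, 1.76 and 0.349 FPKM in IgG and 0.297, 3.44 and 0.615 FPKM in anti-EZH2 libraries, with the highest sum at 4 h with either antibody. These 4 h sums came from 3 genes above 0 with IgG and 4 with anti-EZH2. They were mostly different genes, as only 1 of the 10 was above Sham at 4 h with both antibodies, and 0 of the 10 entered the counts. S100a8, an abundant neutrophil protein, made up 2.21 FPKM of the 4 h anti-EZH2 sum and was listed at 0 in the other 5 libraries.

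The 2 lymphocyte markers gave no value that could be compared. Cd3e, a T cell receptor subunit, was listed at 0 in every library. Cd79a, a B cell receptor subunit, was at 0.368 FPKM in Sham IgG, 0.303 FPKM in the 4 h IgG and 0.1398 FPKM in the Sham anti-EZH2 library, from 2, 2 and 1 reads, and was listed at 0 in the other 3. The further lists of 9 T cell, 7 B cell and 6 NK cell genes summed to at most 2.67, 3.38 and 0.992 FPKM. The B cell list was below Sham at 4 h and 24 h, at 27.1% and 17.6% with IgG and 38.0% and 42.6% with anti-EZH2. The T cell list was at 324.3% and 14.3% of Sham with IgG, and with anti-EZH2 it was at 0 in Sham alone. Of either list, 0 genes entered the counts. At this depth a change of lymphocytes in either direction was not established, and the 2 lymphocyte markers added almost nothing to the marker sums.

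Between the antibodies, no marker passed the test of a difference shared by the 3 groups. In a fit by limma with the treatment group as a block, 0 of the 17 tested markers passed an adjusted p of 0.05, 0 passed an unadjusted p of 0.05, and the lowest adjusted p by limma was 0.675. Over all genes the same fit called 2 of 8629 genes higher with anti-EZH2 (0.0232%) and 0 lower, with 218 higher and 406 lower at an unadjusted p under 0.05. The median marker difference was -0.20, against -0.28 for all genes, and 14 of the 17 markers were below 0. The markers closest to the threshold were Csf1r at -0.62 ± 0.30 (SE, unadjusted p = 0.0967 by limma) and C1qa at -0.41 ± 0.26 (SE, unadjusted p = 0.183 by limma).

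**Figure D5:**
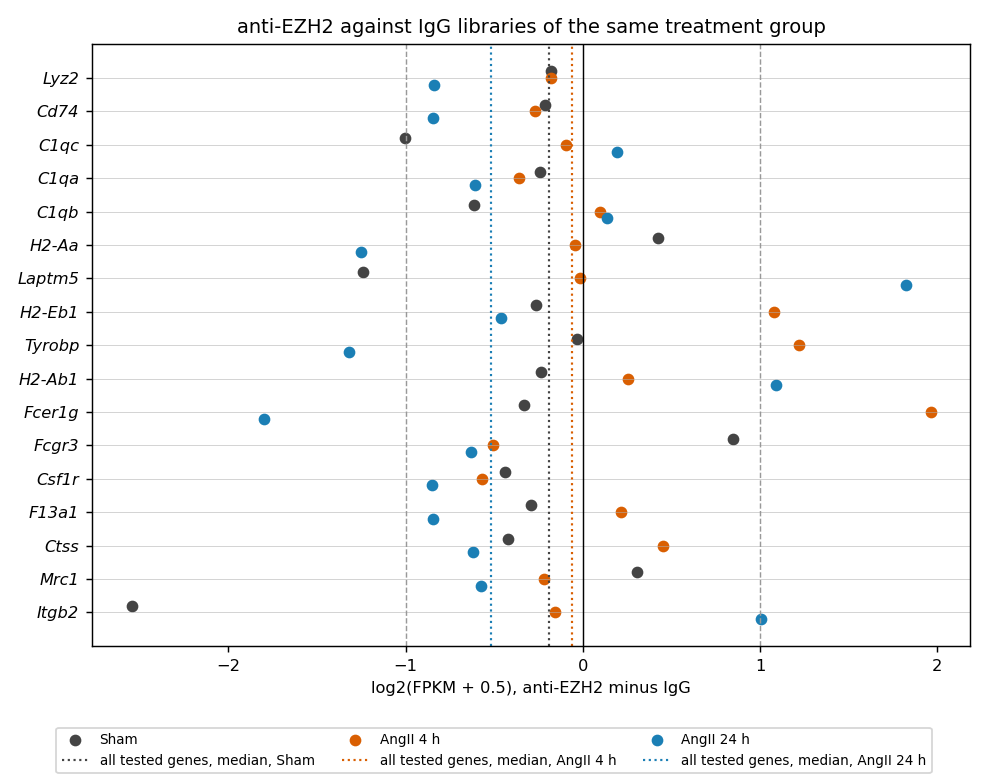
Difference of log2(FPKM + 0.5) between the anti-EZH2 and IgG libraries of each treatment group for the 17 tested markers; dotted lines are the medians of all tested genes in that group and dashed lines mark 2-fold. The markers lie around the dotted lines, with Fcer1g and Tyrobp high at 4 h and low at 24 h, and Laptm5 and Itgb2 low in Sham and high at 24 h.

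Within single groups, the anti-EZH2 library was 2-fold above IgG for 0 markers in Sham, 3 at 4 h (Fcer1g, Tyrobp and H2-Eb1) and 3 at 24 h (Laptm5, H2-Ab1 and Itgb2), against 11.6%, 9.98% and 7.09% of tested genes. It was 2-fold below IgG for 3 markers in Sham (Itgb2, Laptm5 and C1qc), 0 at 4 h and 3 at 24 h (Fcer1g, Tyrobp and H2-Aa), against 14.2%, 8.96% and 27.2%. The Sham difference of Itgb2 follows from the level filter. Centring left 1 marker higher and 1 lower in Sham, and 3 higher and 1 lower at 24 h, where 1274 genes were higher and 849 lower in Sham and 1141 higher and 1207 lower at 24 h among all 8629 tested genes. No marker was past 2-fold in the same direction in more than 1 group. In the table of the whole series the Sham difference of Laptm5 was 0.15, a change of direction. Fcer1g at 4 h, with 23 reads against 3, was the only marker whose read ratio exceeded 1 beyond its interval (5.04, 1.52 to 26.2). The intervals lay below 1 for C1qc and Cx3cr1 in Sham, for Cd53 in Sham and for Adgre1 at 4 h.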

How the data were processed

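FPKM were deposited by the authors in a separate table of each of the 6 libraries, with an interval for each value, and in a table of the whole series. Per the labels, reads were mapped to mm10 with TopHat2 from stranded libraries. How FPKM were computed, and from which gene models, is not given in the sources used here. The 30 members, the other gene lists and the rule for naming genes (all members, and of each other list the 3 genes with the highest mean FPKM, others only for counts of 5 or fewer) were chosen with earlier results of these data known.

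The separate tables were used for the values, and 787 values under 0.001 FPKM were set to 0. Genes with a mean FPKM of at least 1 were tested (8629), differences were taken on log2(FPKM + 0.5), and calls were made at 2-fold. The antibodies were compared with limma 3.58.1 in R 4.3.3 (trend, treatment group as a block, two-sided, Benjamini-Hochberg adjustment over 8629 genes, threshold 0.05). The block pairs the antibody libraries of the same mice. Median centring divided a library by its median ratio to the mean library.

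Depth was inferred from steps of 1 read in low values of 15535 genes with 1 transcript, assuming fragments of 200 ± 80 nt. At the chosen depths 52.1% to 55.2% of these values were whole within 0.1 reads. For a gene with several transcripts, the length that gave the most whole values was taken, which favours whole values. Of the 156 member values above 0, 105 came out whole in this way, and reads were used for the 13 members in which all values but at most 1 did. Ratios of reads have exact Clopper-Pearson 95% intervals. Positions came from GENCODE M21 and promoters from RefSeq. Procedures were tested on simulated data. Tables were handled in Python 3.11.15 (pandas 2.3.3, numpy 2.4.6), intervals came from scipy 1.17.1 and plots from matplotlib 3.10.9. Alternatives were other pseudocounts (0.1 and 1), filters, folds, centring, non-overlapping deposited intervals, the series table, no block and leaving out a treatment group. Centring of the series table was added after seeing the data.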

Additional observations from a re-analysis of the deposited data

Results flagged for a closer look

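Several signalling markers were past 2-fold in opposite directions in different treatment groups or with different antibodies. With 1 library per group and antibody these differences between groups were not tested. For anti-EZH2 against IgG, Laptm5 was at -1.24 in Sham and at 1.82 after 24 h of AngII, and Itgb2 was at -2.54 and 1.00 in the same groups (log2 scale). Itgb2 passed the level filter through the Sham IgG library alone, so its Sham value follows from the filter. The Sham difference of Laptm5 was -0.99 after median centring and 0.15 in the table of the whole series. After AngII, Fcer1g was at 1.96 (4 h) and -1.80 (24 h), and Tyrobp at 1.22 (4 h) and -1.32 (24 h). The 24 h difference of Tyrobp was -0.78 after centring and -0.79 in that table, both short of 2-fold, and its 4 h difference there was 0.93. Between AngII 4 h and Sham, Fcer1g was at -1.02 in IgG and 1.27 in anti-EZH2 libraries, the latter being 0.92 after centring and 0.79 in the table of the whole series. The Fcer1g values rest on 3 and 23 reads in the 4 h IgG and anti-EZH2 libraries and on 5 and 1 reads in those of 24 h, and Tyrobp on 9 reads or fewer in every library.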

How the results depend on the processing

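Each treatment difference rests on 1 library per group and antibody, and most named values on fewer than 100 reads. At 4 h the sum of the markers was below Sham in both tables and under each scaling, whereas at 24 h its position depended on the table read. Single markers differed from the sum, as Fcer1g was above Sham at 4 h with anti-EZH2 in both tables (1.27 and 0.79). The cause of the difference in scale between the tables was not tested. Counts below are markers past the fold in either direction, in the order AngII 4 h to Sham, 24 h to Sham and 24 h to 4 h with IgG, the same 3 with anti-EZH2, and anti-EZH2 to IgG in Sham, 4 h and 24 h.

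As reported, the counts were 8, 6, 4, 2, 4, 2, 3, 3 and 6. A mean of at least 5 FPKM left 5 markers and gave 1, 2, 0, 0, 1, 0, 1, 0 and 0. Requiring deposited intervals that did not overlap gave 2, 2, 0, 0, 1, 1, 1, 0 and 0, and a fold of 1.5 gave 13, 6, 8, 8, 10, 3, 5, 3 and 13. The table of the whole series tested 11 markers and gave 5, 2, 6, 4, 1, 6, 0, 1 and 2, where 24 h to Sham with anti-EZH2 was reversed, with 1 marker higher and 0 lower. In that comparison 33.4% of all genes tested in that table were 2-fold higher and 8.62% lower. Of the 11 markers, the 6 past 2-fold between 24 h and 4 h were higher at 24 h with either antibody. Among all genes tested there, 34.4% with IgG and 32.0% with anti-EZH2 were 2-fold higher. The same table after centring, chosen after seeing the data, gave 5, 1, 3, 5, 3, 3, 0, 1 and 2. Median centring moved 4 h to Sham with anti-EZH2 to 5. Without a filter on low values 24 h to 4 h with anti-EZH2 moved to 4 and anti-EZH2 to IgG in Sham to 7, and with a pseudocount of 1 the former was 1.

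In the table of the whole series the markers summed to 48.5, 21.6 and 48.4 FPKM in Sham, 4 h and 24 h IgG libraries and to 51.5 and 26.1 FPKM in Sham and 4 h anti-EZH2 libraries, and after centring to 55.8, 27.3, 35.3, 59.5 and 29.5 FPKM. Of 38 named differences past 2-fold, that table reversed C1qc at 24 h to Sham with IgG (0.17) and Laptm5 between the antibodies in Sham (0.15), left 21 within 1.5-fold and moved the other 15 by more, while centring reversed 0 and left 38 within 1.5-fold.

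The limma test called 0 markers under every alternative run. Over all genes it called 2 genes, 4 without the replicate block, 0 after centring and 0 in the table of the whole series, and between 0 and 0 when the libraries of 1 treatment group were left out in turn. The pairing in the block comes from the mice that the antibody libraries of a group share.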
